A study of Sus scrofa with 9 samples.

Results

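The genes described here encode the nuclear subunits of oxidative phosphorylation, the mitochondrial machinery that makes most of the ATP of a working muscle. They were chosen by pig gene symbol: NDUF, SDHA to SDHD, UQCR, CYC1, COX4 to COX8 and ATP5. Of 19643 gene entries in the table, 11179 had a symbol and 50 fitted this rule. The 50 comprise 41 subunits (20 of complex I, 4 of complex II, 6 of complex III, 6 of complex IV and 5 of complex V), 6 assembly factors of complex I (NDUFAF), and 3 genes that are not counted as subunits here (COX7A2L, NDUFA4L2 and ATP5IF1). NDUFA4 was counted with complex IV, where its protein resides. A further 31 symbols that fit the rule, among them COX6A1, COX6A2, COX7A1, NDUFV2 and CYC1, matched no entry and were not analysed here.

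RNA came from the longissimus dorsi, the long back muscle, of embryonic pigs of 3 breeds with 3 libraries each. Tibetan and Wujin pigs are indigenous Chinese breeds and Large White pigs are an introduced breed. The labels give no treatment, sex or gestational day, and leave unsaid whether the 3 libraries of a breed are separate animals. The p-values therefore describe the spread among these samples alone, and that spread may be technical. Breed and any difference in stage, animal or handling between the groups cannot be told apart. Of the Wujin libraries, 1 carries the number 1 in its header and the other 2 share a header and are named Wujin a and Wujin b.

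Complexes I and II pass electrons from NADH and succinate to ubiquinone, complex III passes them on to cytochrome c, and complex IV hands them to oxygen. Complexes I, III and IV pump protons as they do so, and complex V, the ATP synthase, uses the returning protons to make ATP. All complexes but complex II also hold subunits encoded in the mitochondrial genome, and complex IV has subunits with separate muscle and ubiquitous isoforms. Oxidative capacity of skeletal muscle is known to grow during late gestation and after birth.

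Values are FPKM, fragments scaled by transcript length and library size. Relative depth was taken from the most common ratio to Large White 1 among genes under 0.2 FPKM in both libraries. It lay between 1 and 1.23 times that of Large White 1. Ratios beyond a fixed limit were left out, so a larger difference could not appear. In Tibetan 1 only 79 of 664 such genes had the most common ratio, so this is a rough estimate. The fragments behind a value are unknown, so no counting interval is given. All 50 genes passed the filter of a mean of at least 1 FPKM over the 9 libraries, which 13106 entries passed. Each was tested with limma on log2(FPKM + 1) over all 9 libraries, with Benjamini-Hochberg adjustment over the 13106 entries, and rose or fell means an adjusted p under 0.05. The median fitted log2 change of all genes tested was -0.77 for Tibetan against Large White, -0.20 for Wujin against Large White and -0.55 for Tibetan against Wujin. A change relative to these medians is called relative below. Under median-ratio scaling, which sets each library by its median ratio to the others, the first of these medians was -0.01.

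The tissue label was checked against skeletal muscle markers. Of 9 listed, 4 were matched, and 2 of these were called higher and 1 lower in Tibetan against Large White. DES is the muscle intermediate filament. Its Tibetan values were 2888, 3053 and 2585 FPKM, its Wujin values 1769, 1477 and 1366, and its Large White values 1206, 1046 and 1053. TNNC2 is fast troponin C. Its Tibetan values were 19960, 18930 and 23410 FPKM, its Wujin values 13300, 8756 and 8834, and its Large White values 6788, 5338 and 4521. For both genes every Tibetan value lay above all the others. MYOD1, a myogenic transcription factor, fell, at 31.4, 21.3 and 24.4 FPKM in Tibetan and 46.9, 48.2 and 48.5 in Large White libraries (-0.89, adjusted p = 0.000391), a call that ended under median-ratio scaling (0.06). ACTA1, skeletal actin, is listed at 0 in Tibetan 2 against 37420 and 41830 FPKM in the other Tibetan libraries, and a 0 of this kind can be a failed estimate. With that 0, the 4 markers summed to 22003 to 67845 FPKM in Tibetan libraries, against 17011 to 20837 for Wujin and 8830 to 12108 for Large White. The marker counts stand beside the shares of all genes tested in Tibetan against Large White, 13% called higher and 63.2% lower. All 6 fibroblast markers were called lower in Tibetan than in Large White libraries. Their summed level was 5299 to 5935 FPKM for Large White, 3059 to 5569 for Wujin and 319 to 356 for Tibetan libraries. Of 5 endothelial markers 3 were matched and 2 of these fell, with sums of 75.1 to 79.9, 45.8 to 72.7 and 29.7 to 39.2 FPKM in the same order. Of 6 erythroid markers 3 were matched and 2 of these fell, with sums of 1919 to 3731, 1464 to 3822 and 146 to 575 FPKM. With 63.2% of all genes called lower, endothelial and erythroid counts this small cannot show whether those cell types differ from genes in general. The counts leave out the size of a fall. The 2 erythroid markers that fell were HBB, at 145 to 573 FPKM in Tibetan and 1910 to 3717 in Large White libraries, and ALAS2, at 0.692 to 1.74 and 7.69 to 13.3. Whether these falls exceed that of all genes was not tested. MYH6, a cardiac myosin that developing skeletal muscle can also express, was the 1 tested marker of 5 listed for heart and rose, from 628 to 759 FPKM in Large White to 1294 to 1960 in Tibetan libraries. Of 4 cartilage markers 2 were tested and both fell in Tibetan against Large White, and the sums were 8.28 to 20.3 FPKM for Large White, 11.1 to 13.0 for Wujin and 0.336 to 0.456 for Tibetan libraries. COL2A1 stood at 0.0133 to 0.0321 FPKM in Tibetan and 5.09 to 16.2 in Large White libraries, and SOX9 at 0.322 to 0.423 against 2.51 to 3.28. Both were under the filter of 1 FPKM in every Tibetan library and passed it through the other breeds alone. The filter thus favoured a fall, and the count of cartilage calls carries no weight. MATN1 was listed at 0 in every Tibetan library and in Wujin a, and was under 0.5 FPKM elsewhere. Of 5 adipocyte markers, the 2 matched were below the filter, with sums of 1.60 to 5.50 FPKM in Tibetan, 0.228 to 1.49 for Wujin and 0.0516 to 0.155 for Large White. The part of these cell types in the results below was not tested, and in bulk tissue fewer cells of a type and less RNA per cell cannot be told apart.

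Most of the 41 measured nuclear subunits, in each of the 5 complexes, were higher in Tibetan libraries than in those of either other breed. Against Large White, 37 of the 41 subunits rose, 2 fell and 2 were not called, where 13% of all genes tested were called higher and 63.2% lower. The subunits had a median fitted log2 change of 1.34, a relative change of 2.12. Under median-ratio scaling 39 rose and 0 fell (limma; also 0 at an unadjusted p under 0.05), where 32.4% of all genes were called higher and 33% lower. Against Wujin, 35 rose, 2 fell and 4 were not called (13.8% of all genes higher and 53.9% lower), with a median of 1.23 (relative 1.78). Of the calls against Wujin, that of NDUFS6 ended without Tibetan 2 or 3, Wujin a or b, or any Large White library (adjusted p = 0.0578 to 0.152). With equal totals NDUFS6, NDUFA11 and ATP5ME were not called. Under median-ratio scaling 38 rose against Wujin and 0 fell (limma; also 0 unadjusted), where 30.9% of all genes were called higher and 30.4% lower. Both comparisons use the same Tibetan libraries. In 34 of the 41 subunits every Tibetan library lay above all 6 others, which held for 11.6% of all genes tested, and the 7 exceptions were NDUFA6, NDUFA10, NDUFS4, NDUFS5, ATP5ME, COX7A2 and COX8A.

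**Figure D1:**
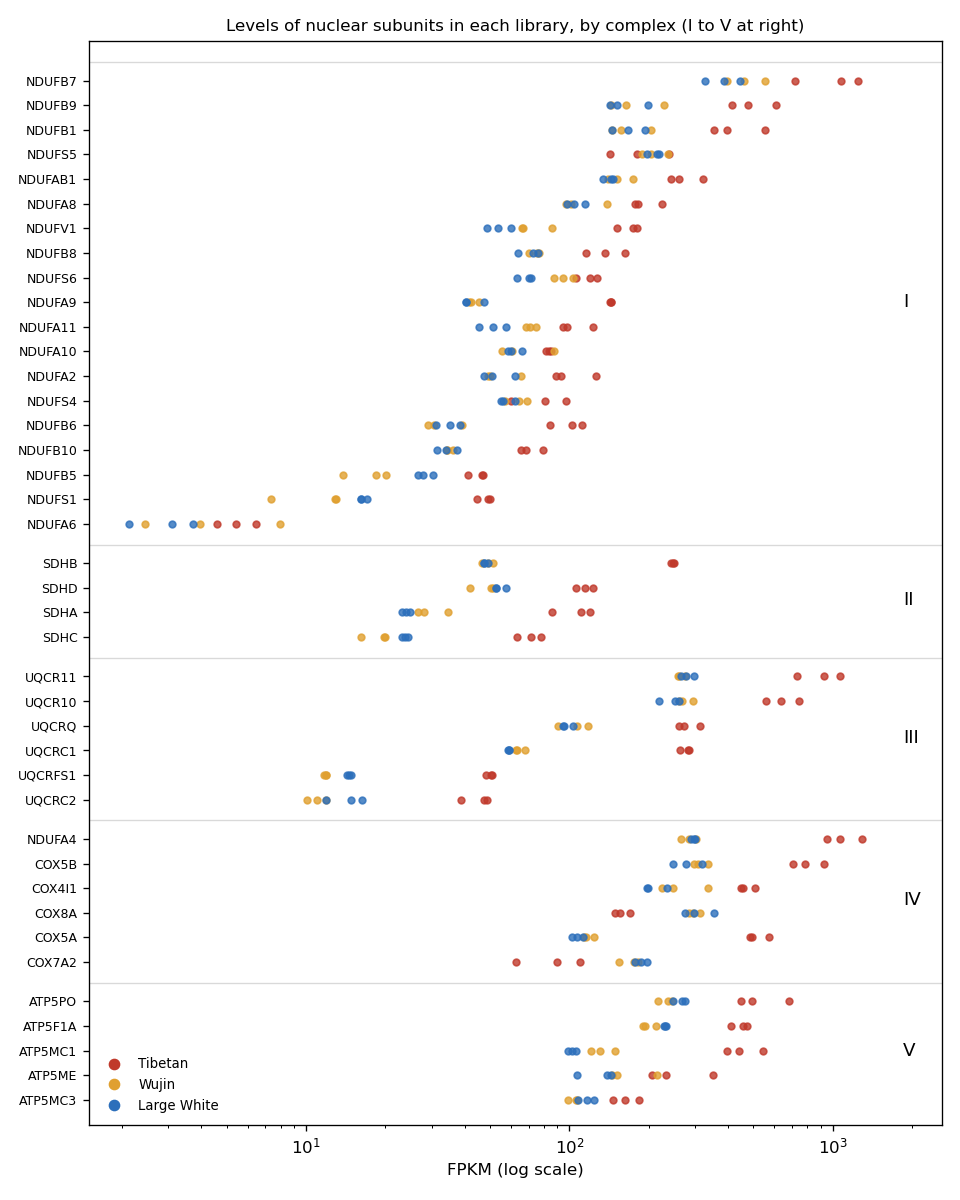
FPKM of nuclear subunits on a log axis, 1 point per library coloured by breed and grouped by complex. Tibetan points lie right of the others in most rows, and left of them for COX7A2 and COX8A.

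The measured subunits together held 1.82%, 2.27% and 1.55% of the FPKM total in Tibetan 1, 2 and 3. In Wujin 1, a and b the share was 1.06%, 0.936% and 0.915%. Large White 1, 2 and 3 held 0.915%, 0.816% and 0.853%. The Tibetan range did not overlap the other ranges. ACTA1, at 0 in Tibetan 2 and at 37420 and 41830 FPKM in Tibetan 1 and 3, is part of these totals. If that 0 is a failed estimate, the share in Tibetan 2 is overstated, and scaling to equal totals has the same limit. Tibetan 2 was the highest Tibetan library for 28 of 41 subunits and Tibetan 3 the lowest for 18. Large White 1 was the highest of its breed for 31 and Large White 3 the lowest for 27. Wujin 1 was the highest of its breed for 21 and the lowest for 16. The median coefficient of variation over the 41 subunits was 13.1% in Tibetan, 9.50% in Wujin and 6.67% in Large White libraries.

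**Figure D2:**
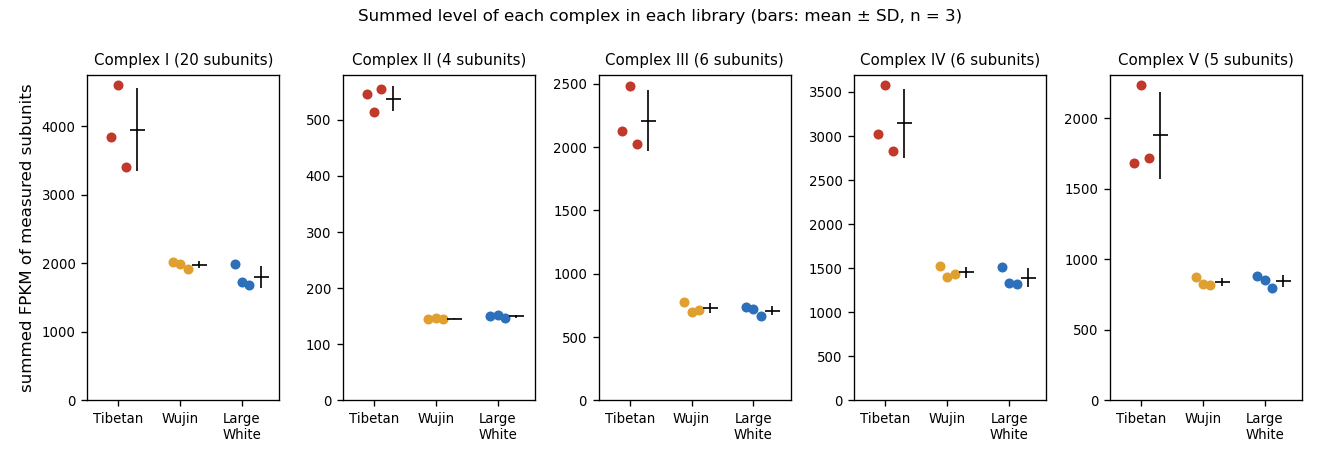
Summed FPKM of the measured subunits of each complex, 1 point per library, with mean ± SD (n = 3) beside each breed. Every Tibetan point lies above every Wujin and Large White point in all 5 panels, and each y axis starts at 0.

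Complex I is the NADH dehydrogenase and the largest complex of the chain. Its 20 measured subunits summed to 3837, 4603 and 3413 FPKM in Tibetan 1, 2 and 3, and to 2025, 1991 and 1919.8 in Wujin 1, a and b. The sums for Large White 1, 2 and 3 were 1986, 1731 and 1685. The breed means were 3951 ± 603, 1979 ± 53.7 and 1801 ± 162 (SD, n = 3, as for all means below). Against Large White, 18 subunits rose in Tibetan libraries and 2 were not called, with changes from -0.20 to 1.73. Levels spanned a wide range, with means over the 9 libraries from 4.42 FPKM for NDUFA6 to 622 FPKM for NDUFB7.

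The catalytic core is described by NDUFV1, which binds the flavin that takes electrons from NADH, and NDUFS1, which carries iron-sulfur clusters. NDUFV1 stood at 175, 152 and 180.3 FPKM in Tibetan 1, 2 and 3, and at 86.3, 66.4 and 65.9 in Wujin 1, a and b. Large White 1, 2 and 3 were at 59.8, 48.6 and 53.4 FPKM. NDUFS1 stood at 49.9, 44.6 and 49.3 FPKM in Tibetan, 7.37, 12.95 and 12.9 in Wujin and 17.02, 16.1 and 16.2 in Large White libraries. In both genes the Tibetan libraries were above the rest, and Wujin and Large White did not overlap, with Wujin higher for NDUFV1 and lower for NDUFS1. The fitted change from Large White to Tibetan was 1.63 ± 0.14 (SE; relative 2.40; limma, adjusted p = 8.05e-06) for NDUFV1 and 1.49 ± 0.19 for NDUFS1 (adjusted p = 8.23e-05). Neither was called between Wujin and Large White.

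Accessory subunits of complex I, which surround and stabilise the core, were more varied. All 7 members of the NDUFB series, which belong to the membrane arm, rose in Tibetan against Large White, by 0.64 for NDUFB5 to 1.59 for NDUFB9. NDUFB7, the subunit of highest mean over the 9 libraries, stood at 1076, 1242 and 716 FPKM in Tibetan, 397, 552 and 458 in Wujin and 443, 327 and 386 in Large White libraries. NDUFB9 stood at 476, 607 and 413 FPKM in Tibetan, 229, 164 and 144 in Wujin and 198, 152 and 143 in Large White libraries. NDUFB1 stood at 355, 551 and 397 FPKM in Tibetan, 158, 145 and 204 in Wujin and 194, 167 and 145 in Large White libraries. In these abundant subunits the Tibetan libraries did not overlap the others, and Wujin overlapped Large White.

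Of the 7 NDUFA subunits, including NDUFAB1, 6 rose and NDUFA6 was not called. NDUFA9, which binds near the ubiquinone site, had the largest change of complex I against Large White, at 143, 143 and 144 FPKM in Tibetan, 41.5, 45.3 and 42.2 in Wujin and 47.3, 40.4 and 40.5 in Large White libraries (1.73 ± 0.11, relative 2.50, adjusted p = 8.94e-07). Its 3 Tibetan values differed less, in proportion to their mean, than those of any other subunit, with a coefficient of variation of 0.381%. NDUFAB1, the mitochondrial acyl carrier protein, changed by 0.94 ± 0.14 (adjusted p = 0.000209). NDUFA10 stood at 85.4, 83.4 and 81.4 FPKM in Tibetan, 87.1, 60.5 and 55.5 in Wujin and 66.2, 60.2 and 58.6 in Large White libraries, so Wujin 1 lay above every Tibetan library and all other values below them. Its call against Large White (0.43 ± 0.16, adjusted p = 0.0354) ended without any single Tibetan library, without Large White 2 or 3, and with equal totals (adjusted p = 0.0599 to 0.186). NDUFA6, the subunit of lowest level, stood at 5.43, 4.58 and 6.46 FPKM in Tibetan, 2.44, 7.99 and 3.95 in Wujin and 3.72, 2.13 and 3.11 in Large White libraries. Its change of 0.71 ± 0.32 was not called (adjusted p = 0.0653), but was called higher without Wujin 1 or Wujin a (adjusted p = 0.0258 and 0.0146) and under median-ratio scaling (adjusted p = 0.00115).

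The 3 accessory NDUFS subunits had a median change of 0.43 against Large White. NDUFS5 stood at 180.3, 239 and 142 FPKM in Tibetan, 237, 189 and 204 in Wujin and 215, 219.8 and 197 in Large White libraries. NDUFS4, which lies in the NADH-oxidising part of the complex, stood at 80.8, 96.9 and 60.3 FPKM in Tibetan, 64.3, 57.1 and 69.1 in Wujin and 62.4, 56.2 and 54.9 in Large White libraries. These were the only subunits whose Tibetan and Large White ranges overlapped: in 37 of 41 every Tibetan library was above every Large White library (14.1% of all genes) and in 2 below (66.5%). NDUFS5 was not called (-0.20 ± 0.18, relative 0.57, adjusted p = 0.344), yet it was called higher under median-ratio scaling (0.77) and lower without Tibetan 2 (-0.39). NDUFS4 was called (0.43 ± 0.17, adjusted p = 0.0455), but not without Tibetan 1 or 2, any Wujin library or any Large White library (adjusted p = 0.0534 to 0.143), nor with equal totals (adjusted p = 0.222). NDUFS6, which carries zinc, changed by 0.78 ± 0.12 (adjusted p = 0.000279). The log2 ratio of NDUFB9 to NDUFS5, which scaling between libraries does not alter, was 1.40, 1.34 and 1.54 in Tibetan, -0.05, -0.20 and -0.50 in Wujin and -0.12, -0.53 and -0.47 in Large White libraries. This ratio was chosen after the values were seen and has no test.

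Complex II, succinate dehydrogenase, also serves the tricarboxylic acid cycle and is wholly nuclear-encoded, so all of its subunits are in view here. All 4 rose in Tibetan libraries against both other breeds. SDHB, the iron-sulfur subunit, had the largest change of the 41 subunits, at 248, 243 and 249 FPKM in Tibetan, 51.4, 46.7 and 49.1 in Wujin and 48.9, 47.5 and 47.4 in Large White libraries (2.34 ± 0.09, relative 3.11, adjusted p = 1.16e-07). SDHA, the flavoprotein, stood at 111, 86.04 and 120.1 FPKM in Tibetan, 34.6, 28.1 and 26.6 in Wujin and 24.8, 23.2 and 24.04 in Large White libraries (2.08 ± 0.15, adjusted p = 2.52e-06). SDHC and SDHD are the membrane anchors. SDHC stood at 63.3, 77.8 and 71.4 FPKM in Tibetan, 16.1, 19.8 and 19.9 in Wujin and 24.4, 23.7 and 23.1 in Large White libraries (1.53 ± 0.12, adjusted p = 4.73e-06). SDHD stood at 123, 106 and 115 FPKM in Tibetan, 42.1, 51.4 and 50.3 in Wujin and 52.7, 57.5 and 52.8 in Large White libraries (1.06 ± 0.12, adjusted p = 3.45e-05). For all 4 genes every Tibetan value lay above those of the other breeds. The log2 ratio of SDHB to SDHD within a library was 1.01, 1.20 and 1.12 in Tibetan, 0.29, -0.14 and -0.03 in Wujin and -0.11, -0.28 and -0.16 in Large White libraries, a description chosen after the values were seen. The summed level of complex II was 538 ± 21.5 FPKM in Tibetan, 145 ± 1.003 in Wujin and 150.0 ± 2.43 in Large White libraries.

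Complex III, the cytochrome bc1 complex, had 6 measured subunits, all of which rose against both breeds, with changes from 1.40 to 2.22 against Large White. UQCRC1, a core protein, stood at 282, 263 and 286 FPKM in Tibetan, 67.8, 63.3 and 62.5 in Wujin and 58.99, 58.3 and 59.1 in Large White libraries (2.22 ± 0.10, relative 2.99, adjusted p = 1.56e-07). UQCRC2, the other core protein, stood at 48.8, 38.9 and 47.3 FPKM in Tibetan, 10.1, 11.95 and 10.96 in Wujin and 11.96, 14.8 and 16.3 in Large White libraries (1.59 ± 0.15, adjusted p = 1.02e-05). UQCRFS1, the Rieske iron-sulfur protein that passes electrons towards cytochrome c, stood at 50.4, 50.8 and 48.1 FPKM in Tibetan, 11.7, 11.9 and 11.9 in Wujin and 14.5, 14.8 and 14.3 in Large White libraries (1.71 ± 0.09, adjusted p = 4.55e-07). The catalytic Rieske protein and UQCRC2 were the least abundant of the complex per length. The small subunits were more abundant: UQCR11 stood at 908 ± 168 FPKM in Tibetan, 265 ± 8.94 in Wujin and 280.0 ± 16.98 in Large White libraries, and UQCR10 at 647 ± 95.1, 274 ± 17.4 and 243 ± 21.8. For all 6 genes every Tibetan library lay above the 6 others. UQCRQ, which lies close to cytochrome b, stood at 282 ± 28.9, 105 ± 13.3 and 97.7 ± 4.78 FPKM.

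Complex IV, cytochrome c oxidase, was divided: 4 subunits rose in Tibetan libraries and 2 fell, against both other breeds. COX5A, which contacts the catalytic core, stood at 484, 574 and 494 FPKM in Tibetan, 116, 124 and 114 in Wujin and 113, 102 and 107 in Large White libraries (2.26 ± 0.11, relative 3.03, adjusted p = 2.88e-07). NDUFA4 stood at 1062, 1288 and 954 FPKM in Tibetan, 266, 285 and 301 in Wujin and 298, 299 and 289 in Large White libraries (1.88 ± 0.13, adjusted p = 2.02e-06). COX5B, a zinc-binding subunit, changed by 1.52 ± 0.14 (adjusted p = 1.30e-05), and COX4I1, the common isoform of the regulatory subunit, by 1.16 ± 0.16 (adjusted p = 0.000150). For these 4 genes every Tibetan library lay above the 6 others.

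COX7A2 and COX8A are the isoforms found in most tissues, whose counterparts in mature striated muscle are other genes. COX7A2 stood at 89.99, 110.0 and 62.6 FPKM in Tibetan, 155, 177 and 182 in Wujin and 196, 178 and 188 in Large White libraries. COX8A stood at 156, 170.5 and 148 FPKM in Tibetan, 313, 295 and 286 in Wujin and 355, 275 and 297 in Large White libraries. For both genes every Tibetan value lay below all the others, and Wujin and Large White overlapped. Against Large White the fitted change was -1.12 ± 0.19 for COX7A2 (adjusted p = 0.000480) and -0.95 ± 0.13 for COX8A (adjusted p = 0.000104), and relative to the median of all genes it was -0.35 and -0.18. Under median-ratio scaling neither was called, with -0.15 for COX7A2 and 0.02 for COX8A. Scaling between libraries does not alter their share of complex IV. The pair was grouped after both were seen to fall while the other measured subunits of the complex rose. A lower share followed from that choice and carries no weight as a separate result. Together they made up 8.15, 7.83 and 7.47 percent of the summed FPKM of the 6 measured subunits in Tibetan 1, 2 and 3. The share was 30.8, 33.6 and 32.5 percent in Wujin and 36.3, 34.02 and 36.6 percent in Large White libraries. The log2 ratio of COX5A to COX7A2 was 2.43, 2.38 and 2.98 in Tibetan, -0.42, -0.51 and -0.68 in Wujin and -0.80, -0.80 and -0.81 in Large White libraries. COX5A was thus above COX7A2 in each Tibetan library and below it in each of the other 6, a description chosen after the values were seen.

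**Figure D3:**
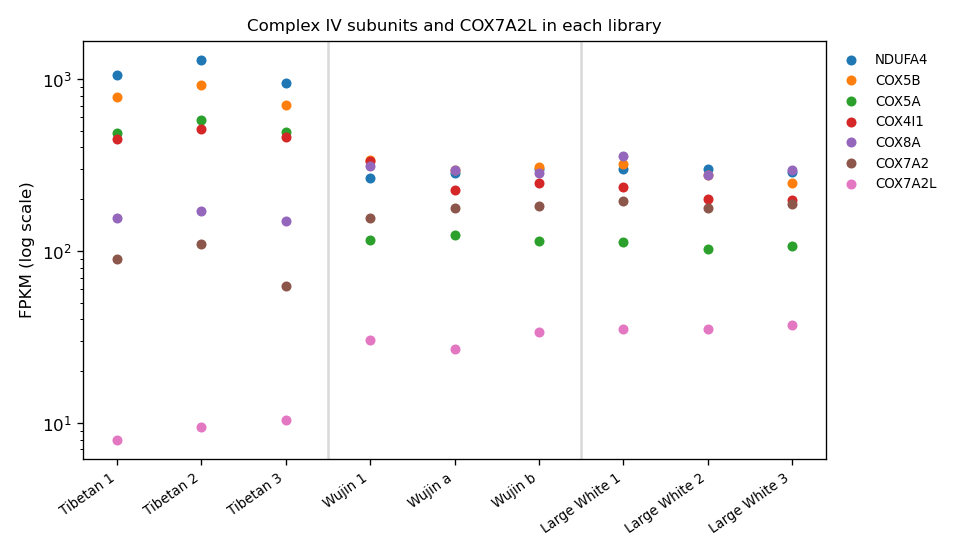
FPKM on a log axis of the 6 complex IV subunits and COX7A2L in each library. In Tibetan libraries COX5A, NDUFA4, COX5B and COX4I1 are higher and COX8A, COX7A2 and COX7A2L lower than in the 6 other libraries.

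COX7A2L, a relative of COX7A2 that takes part in joining complexes III and IV into supercomplexes, stood at 7.95, 9.48 and 10.4 FPKM in Tibetan, 30.5, 26.9 and 33.8 in Wujin and 35.3, 35.2 and 37.1 in Large White libraries. It fell by 1.85 ± 0.13 on the log2 scale against Large White (relative -1.08, adjusted p = 2.02e-06), the lowest value among the 50 genes. NDUFA4L2, a paralog of NDUFA4 known for its induction by low oxygen, stood at 4.47, 4.14 and 6.22 FPKM in Tibetan, 9.17, 9.27 and 8.73 in Wujin and 6.93, 5.897 and 5.81 in Large White libraries. It fell against Wujin (-0.77 ± 0.15, adjusted p = 0.00117), a call that ended under median-ratio scaling (-0.14) and quantile normalization (-0.18). It was not called against Large White (-0.29 ± 0.15, adjusted p = 0.0943), with a rise under median-ratio scaling (0.54) and quantile normalization (0.54) and a fall with equal totals (-0.41) or without Tibetan 3 (-0.44). The log2 ratio of NDUFA4L2 to NDUFA4, on FPKM + 1, was -7.60, -7.97 and -7.05 in Tibetan, -4.71, -4.80 and -4.96 in Wujin and -5.24, -5.44 and -5.41 in Large White libraries. The breeds differed in this ratio (exact permutation test over all 1680 arrangements of the 9 libraries in 3 groups, p = 0.00357, the smallest it can give), and the breed ranges did not overlap. This was the only one of 5 isoform pairs with both members matched, so 1 pair was tested.

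Complex V, the ATP synthase, had 5 measured subunits, all of which rose in Tibetan libraries against both breeds. ATP5F1A, the alpha subunit of the catalytic head, stood at 412, 474 and 458 FPKM in Tibetan, 194, 213 and 190.4 in Wujin and 229, 233 and 231 in Large White libraries (0.95 ± 0.11, relative 1.72, adjusted p = 3.69e-05). ATP5PO, part of the peripheral stalk, stood at 494, 683 and 448 FPKM in Tibetan, 217, 237 and 245 in Wujin and 275, 269 and 247 in Large White libraries (1.01 ± 0.16, adjusted p = 0.000336). In both the Tibetan libraries were above the rest and every Wujin library was below every Large White library. Neither was called between Wujin and Large White (limma, adjusted p = 0.191 and 0.458), and 35.3% of all genes tested had such a lower Wujin range. The pair ATP5MC1 and ATP5MC3 encode the same mature subunit c of the rotor ring and had unlike fitted changes. ATP5MC1 stood at 396, 542 and 441 FPKM in Tibetan, 149, 120.5 and 130.1 in Wujin and 106, 98.6 and 103 in Large White libraries (2.15 ± 0.14, adjusted p = 1.43e-06). ATP5MC3 stood at 146, 184 and 163 FPKM in Tibetan, 98.6, 106 and 107 in Wujin and 125, 116 and 107 in Large White libraries (0.50 ± 0.12, adjusted p = 0.00422). The log2 ratio of ATP5MC1 to ATP5MC3 was 1.44, 1.56 and 1.43 in Tibetan, 0.60, 0.18 and 0.29 in Wujin and -0.24, -0.24 and -0.07 in Large White libraries, 3 ranges that do not overlap. It was chosen after the values were seen and was not tested, and similar sequence may blur which gene a read came from. ATP5ME, a small membrane subunit, stood at 232, 351 and 207 FPKM in Tibetan, 216, 152 and 145 in Wujin and 144, 139.5 and 107 in Large White libraries. Its Tibetan range overlapped the Wujin range through Wujin 1, and its call against Wujin (0.61 ± 0.23, adjusted p = 0.0427) ended without Tibetan 1 or 2, Wujin a or b, or Large White 1 or 2 (adjusted p = 0.0568 to 0.138). The call also ended with equal totals (0.37, limma, adjusted p = 0.230). Quantile normalization, no filter on low values and fitting only the 6 libraries compared ended it too (limma, adjusted p = 0.0590 to 0.0733). ATP5IF1, the inhibitor that holds the synthase when the proton gradient falls, stood at 266, 389 and 236 FPKM in Tibetan, 167, 123 and 133 in Wujin and 136, 135 and 116 in Large White libraries and rose (1.17 ± 0.20, adjusted p = 0.000513).

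**Figure D4:**
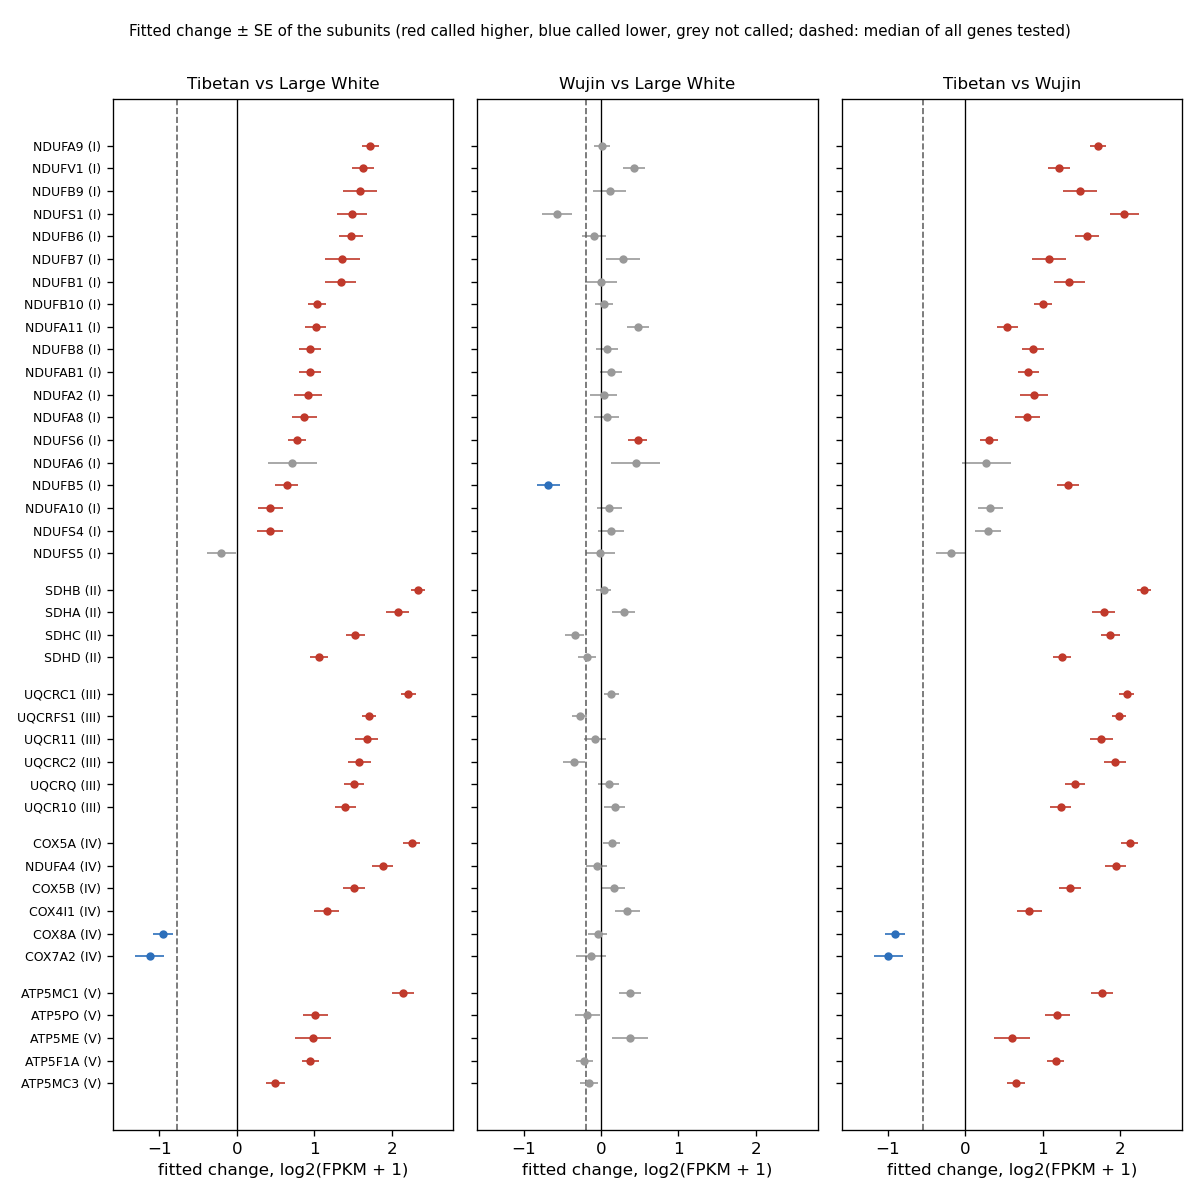
Fitted log2 change ± SE of the subunits in the 3 comparisons, with the complex in brackets, and the median of all genes tested as a dashed line. In the Tibetan comparisons most subunits lie above 0, up to 2.34, while COX8A, COX7A2 and the uncalled NDUFS5 lie below it. Wujin against Large White stays between -0.68 and 0.48.

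Few of these genes were called between Wujin and Large White. Of the 41 subunits, 1 rose and 1 fell in Wujin libraries, where 1.67% of all genes tested were called higher and 4.85% lower, and the median change was 0.03 (relative 0.23). NDUFS6 stood at 103, 94.4 and 87.3 FPKM in Wujin and 71.2, 70.2 and 63.1 in Large White libraries (0.47 ± 0.12, adjusted p = 0.0495). NDUFB5 stood at 13.8, 18.5 and 20.2 FPKM in Wujin and 27.9, 30.4 and 26.7 in Large White libraries (-0.68 ± 0.15, adjusted p = 0.0367). Neither Wujin range overlapped that of Large White. Both calls ended without Tibetan 1 or 3, Wujin 1 or a, or any Large White library (adjusted p = 0.0506 to 0.173), and NDUFS6 also lost its call without Tibetan 2. Over all 41 subunits the changes pointed both ways, with 24 fitted changes above 0 and 17 below. In 9 subunits every Wujin library lay above every Large White library, which is 22% against 9.67% of all genes tested. In 10 subunits every Wujin library lay below, which is 24.4% against 35.3%. The higher 9 were NDUFA11, NDUFS6, NDUFV1, SDHA, UQCRC1, UQCR10, COX5A, ATP5MC1 and ATP5ME. Among the lower 10 were NDUFB5, NDUFS1, SDHC, SDHD, UQCRC2, UQCRFS1, ATP5F1A, ATP5MC3 and ATP5PO. Subunits of 1 complex were thus on both sides, such as SDHA against SDHC and SDHD.

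The 6 NDUFAF assembly factors help build complex I without staying in it. Against Large White, NDUFAF3 and NDUFAF4 rose in Tibetan libraries and the other 4 were not called (13% of all genes higher, 63.2% lower), with a median change of 0.31 (relative 1.08). Under median-ratio scaling and under quantile normalization all 6 were called higher, where quantile normalization called 31.7% of all genes higher and 31.4% lower. NDUFAF3, the most abundant, stood at 50.2, 44.7 and 48.4 FPKM in Tibetan, 39.5, 36.2 and 37.6 in Wujin and 35.98, 32.1 and 35.7 in Large White libraries (0.45 ± 0.10, adjusted p = 0.00304). NDUFAF4 stood at 11.6, 7.56 and 9.66 FPKM in Tibetan, 2.501, 2.96 and 3.91 in Wujin and 5.53, 4.16 and 5.88 in Large White libraries (0.77 ± 0.19, adjusted p = 0.00484). NDUFAF1 stood at 9.81, 6.705 and 10.2 FPKM in Tibetan, 1.62, 3.14 and 4.33 in Wujin and 6.74, 6.17 and 7.600 in Large White libraries, with Wujin lowest. Against Wujin 5 of the 6 rose in Tibetan libraries, all but NDUFAF7, where 13.8% of all genes were called higher and 53.9% lower, with changes of up to 1.36 ± 0.19 for NDUFAF4. NDUFAF6 passed the filter of 1 FPKM narrowly, with a mean of 1.01 over the 9 libraries. Its breed means were 1.54 FPKM in Tibetan, 0.430 in Wujin and 1.07 in Large White libraries. Its testing thus hung on the libraries where it was higher, and its call against Wujin adds little to the count. The call of NDUFAF3 against Wujin (0.33 ± 0.10) ended with equal totals (0.10, adjusted p = 0.483) and without Tibetan 1 or Wujin a (adjusted p = 0.0538 and 0.0642). NDUFAF1 was called lower in Wujin than in Large White (-1.01 ± 0.25, adjusted p = 0.0485), a call that ended without any one of the libraries other than Wujin b (adjusted p = 0.0523 to 0.166). NDUFAF5, NDUFAF6 and NDUFAF7 stayed at low levels in every library, between 0.225 and 5.19 FPKM, where log2(FPKM + 1) understates changes.

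Other genes around the respiratory chain were taken from lists of known pathway members. Their counts stand beside the same shares of all genes: 13% higher and 63.2% lower for Tibetan against Large White, and 1.67% and 4.85% for Wujin against Large White. Of 17 tested genes listed for the tricarboxylic acid cycle and pyruvate dehydrogenase, which supply its electrons, 16 rose in Tibetan libraries against Large White and 1 was not called (median 1.54, relative 2.32). The 17 include MDH1, the cytosolic malate dehydrogenase, which is outside the cycle and was among those that rose. SUCLA2, a subunit of succinyl-CoA synthetase, averaged 73.5 ± 3.82 FPKM in Tibetan libraries and 12.6 ± 0.716 in Large White ones. Of 21 carriers and suppliers of the chain, 16 rose, 1 fell and 4 were not called (median 0.98, relative 1.75). CYCS, cytochrome c, stood at 183, 154 and 133 FPKM in Tibetan, 27.1, 33.1 and 32.2 in Wujin and 38.6, 32.5 and 27.2 in Large White libraries (2.23 ± 0.17, adjusted p = 3.03e-06). CKMT2, the creatine kinase of muscle mitochondria, had the largest change of the list against Large White (658, 610.2 and 855 FPKM in Tibetan, 7.05, 10.1 and 6.07 in Wujin and 14.7, 12.3 and 15.6 in Large White libraries; 5.54 ± 0.20). SLC25A4, the muscle exchanger of ADP for ATP, stood at 1158, 1423 and 1241 FPKM in Tibetan, 162, 143 and 144 in Wujin and 97.3, 95.8 and 86.8 in Large White libraries (3.75 ± 0.12, adjusted p = 4.50e-08), and also rose from Large White to Wujin (0.68 ± 0.12, adjusted p = 0.0252). Between Wujin and Large White this list had 1 call higher and 2 lower: CKMT2 fell (-0.82 ± 0.20, adjusted p = 0.0447), as did HCCS, which attaches heme to cytochrome c (-0.94 ± 0.20, adjusted p = 0.0360). All 3 calls ended without any one of the Large White libraries, that of CKMT2 also under each other scaling, without any Tibetan library and without Wujin 1 or b. Those of SLC25A4 and HCCS also ended without Wujin a, and that of HCCS without Tibetan 3. Those of CKMT2 and HCCS also ended with a pseudocount of 0.1 and when only the 6 libraries compared were fitted, and that of CKMT2 with no filter on low values. SLC25A5, the isoform of that exchanger found in dividing cells, was not called in Tibetan against Large White (0.31 ± 0.29, adjusted p = 0.348), but rose under median-ratio scaling (1.23) and quantile normalization (0.87). COQ8A and COQ9, which act in ubiquinone synthesis, changed by 2.63 ± 0.17 and 2.37 ± 0.12, while DHODH, which feeds electrons from pyrimidine synthesis into the chain, fell (-0.89 ± 0.20, relative -0.12, adjusted p = 0.00283). That call ended under median-ratio scaling (-0.17) and quantile normalization (-0.01).

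The 13 subunits encoded in the mitochondrial genome were called in both directions. Against Large White 6 rose in Tibetan libraries, 2 fell and 5 were not called (median 0.42, relative 1.19), where 13% of all genes were called higher and 63.2% lower. After quantile normalization 2 rose and 4 fell, where 31.7% of all genes were called higher and 31.4% lower. Under median-ratio scaling 11 rose and 2 were not called, where 32.4% of all genes were called higher and 33% lower. Against Wujin 12 of the 13 rose and 1 was not called (13.8% and 53.9% of all genes). After quantile normalization 8 rose against Wujin and 5 were not called, where 3875 of all 13106 genes tested were called higher and 3886 lower. Against Large White 4 of the 13 fell in Wujin libraries and 9 were not called (1.67% of all genes higher, 4.85% lower). The call of ND1 ended without Wujin a or any Large White library (limma, adjusted p = 0.0506 to 0.0889). That of COX2 ended without Tibetan 1, Wujin 1 or a, or any Large White library (limma, adjusted p = 0.0554 to 0.126). It also ended under median-ratio scaling, with equal totals, with no filter and with only the 6 libraries compared. A difference in change between nuclear and mitochondrial subunits was not tested.

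Of 16 tested genes of import, chaperoning and inner-membrane structure, 8 rose, 3 fell and 5 were not called in Tibetan against Large White (median 0.27, relative 1.04; 13% of all genes higher and 63.2% lower), and under median-ratio scaling 15 rose and 1 was not called, where 32.4% of all genes were called higher and 33% lower. Of 24 tested other assembly factors, 6 rose, 5 fell and 13 were not called (median -0.12, relative 0.65), and under median-ratio scaling 16 rose and 1 fell. ECSIT, which acts in complex I assembly, averaged 111 ± 13.4 FPKM in Tibetan libraries and 27.6 ± 1.56 in Large White ones. COX17, a copper chaperone of complex IV, averaged 381 ± 75.3 and 179 ± 12.9 FPKM. SCO1, another copper chaperone of complex IV, fell from 9.805 ± 0.816 to 2.93 ± 0.603 FPKM. Of 18 tested regulators of mitochondrial gene expression, 5 rose, 5 fell and 8 were not called (median -0.16, relative 0.62), and under median-ratio scaling 11 rose and 4 fell. After quantile normalization 12 rose and 2 fell, where 31.7% of all genes were called higher and 31.4% lower. ESRRA, a nuclear receptor known to act on many of these subunit genes, stood at 39.5, 34.5 and 40.9 FPKM in Tibetan, 6.83, 6.54 and 5.75 in Wujin and 6.67, 6.28 and 6.11 in Large White libraries (2.42 ± 0.11, adjusted p = 2.22e-07). PPARGC1A, a coactivator of such receptors known to drive mitochondrial biogenesis, stood at 44.8, 21.5 and 12.9 FPKM in Tibetan, 1.81, 2.22 and 2.24 in Wujin and 1.68, 1.63 and 2.38 in Large White libraries (3.08 ± 0.36, adjusted p = 4.48e-05). In both genes every Tibetan library lay above the rest. NRF1, a transcription factor known for its sites in subunit promoters, fell from 6.22 ± 0.111 in Large White to 2.29 ± 0.169 FPKM in Tibetan libraries (-1.13 ± 0.10, adjusted p = 9.26e-06), a relative change of -0.36. GABPB1, a subunit of the factor GABP, fell from 3.39 ± 0.146 to 0.989 ± 0.1699 FPKM (adjusted p = 7.63e-05). Both calls ended after quantile normalization (-0.26 for NRF1 and -0.24 for GABPB1). The part of these regulators in the subunits' levels was not tested.

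**Figure D5:**
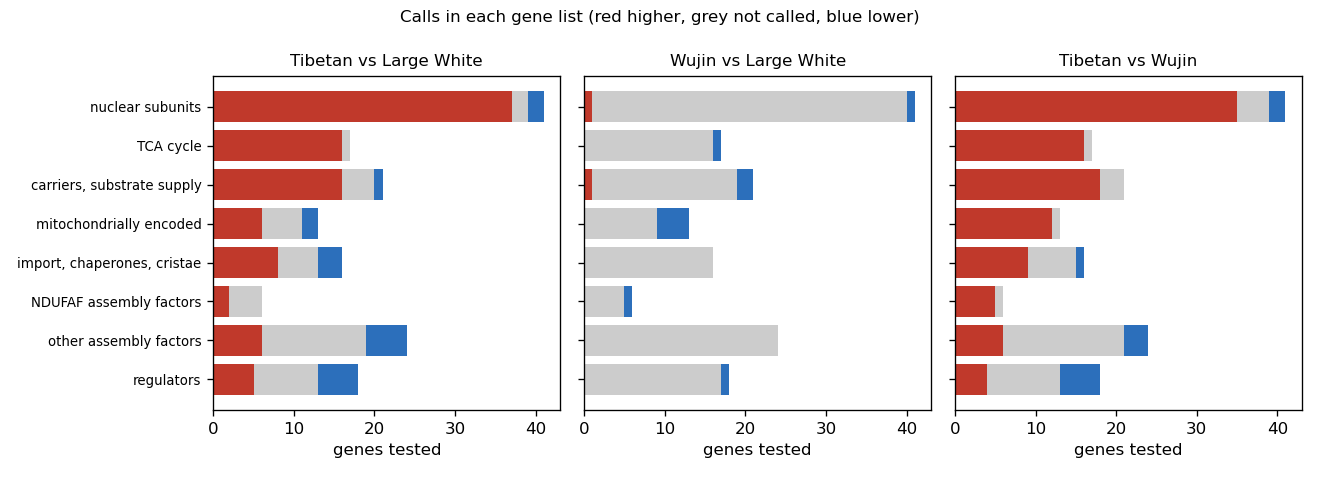
Number of genes called higher, not called and called lower in each list, for the 3 comparisons. Red bars fill most of the rows of nuclear subunits, the tricarboxylic acid cycle and carriers in both Tibetan comparisons, and nearly all genes are grey between Wujin and Large White.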

How the data were processed

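RNA was extracted with Trizol and 3 ug of total RNA per sample went into TruSeq libraries, per the labels' protocols. Reads were aligned with TopHat, per the submitters' processing notes. Which quantifier, genome build and gene annotation served was not given in the sources used here. Submitters' values are FPKM: the authors deposited 1 table of FPKM per gene entry and library, with no counts, per the file headers. The header WJ2 stands over 2 columns, so these Wujin libraries carry no number here, and 0 value columns were left unused. Symbols were found for 56.91% of the entries in the gene name table. No sequence was printed.

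FPKM were tested as log2(FPKM + 1) with limma 3.58.1 in R 4.3.3 (trended empirical Bayes), as 3 breed means over 9 libraries with no covariate, and Benjamini-Hochberg adjustment over 13106 entries. A fold on this scale understates the change of low genes. The code was tested on simulated data, and figures were drawn with matplotlib 3.10.9. Library totals were 505042 to 677783 FPKM, and Pearson's r between libraries of a breed, on the log2 scale, was 0.94 to 0.968. Alternatives were other pseudocounts, filters, scalings and sets of libraries. The members, gene lists and tests were chosen with earlier results of these data known. Subunits named in the text were those of highest level, of largest and smallest change in each complex, and those outside its majority direction. Further subunits are given for their role, and genes named from the other lists were chosen after their values were seen. Values of 1 subunit are not reported here, though it is in the counts, sums and medians.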

Additional observations from a re-analysis of the deposited data

How the results depend on the processing

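Over all alternatives, 35 to 39 of the 41 subunits were called higher in Tibetan than in Large White libraries (35 to 37 when 1 library was left out) and 32 to 38 higher than in Wujin libraries (33 to 36). Called lower against Large White were 2 to 3 with 1 library left out, the higher count without Tibetan 2, and 2 against Wujin. Under median-ratio scaling 0 were called lower against either breed (limma, also 0 at an unadjusted p under 0.05). In every alternative 35 of 39 calls against Large White, 32 of 37 against Wujin, and 0 of 2 between Wujin and Large White were made. For Wujin against Large White, 0 subunits were called higher (limma) with a pseudocount of 0.1, a mean of at least 5 FPKM, median-ratio scaling or only the 6 libraries of the comparison (4, 4, 8 and 5 at an unadjusted p under 0.05), and 2 with quantile normalization. The count called lower was 0 (limma) with a pseudocount of 0.1, median-ratio scaling, equal totals, equal totals without the 50 highest entries, or only the 6 libraries (6, 2, 2, 2 and 7 unadjusted). With 1 library left out both counts ranged from 0 to 1. Against Large White, median-ratio scaling turned COX8A to 0.0195, NDUFS5 to 0.77 and NDUFA4L2 to 0.54, and quantile normalization turned NDUFA4L2 to 0.54; the cause was not tested. Changes of sign among uncalled values numbered 2 of 946, 47 of 896 and 2 of 896 in Tibetan against Large White, Wujin against Large White and Tibetan against Wujin.

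Same-numbered Tibetan and Large White libraries did not deviate together (r = 0.013, -0.023 and -0.076), so the numbers were not taken as pairs. With a replicate block over these 6 libraries 37 were called higher and 2 lower, NDUFS4 was not called (0.43, adjusted p = 0.0633) and NDUFA6 was. Wujin columns carry no usable numbers, so no block could be fitted there. Depth in fragments is unknown, which limits what can be said of low genes such as NDUFA6 and NDUFAF6.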
